A study of Mus musculus with 9 samples.

Results

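The AP-1 and ATF factors described here are 10 genes, Fos, Fosb, Fosl1, Fosl2, Jun, Junb, Jund, Atf3, Batf and Maff, picked by symbol out of 46517 gene rows of an estimated count table. Each symbol matched 1 row, and all 10 genes had enough counts to be tested. The 9 libraries come from primary monocytes of C57BL/6 mice, wild type (wt) and grown in vitro, and they share this strain, genotype and culture origin. There are 3 libraries, numbered 0, 1 and 2, of each of 3 subsets, which are the conventional (cMo), intermediate (intMo) and patrolling monocyte (pMo). Words such as later, rise and step follow the order cMo, intMo, pMo, which was not tested as an order in time. The series title names OP9-DLL1 cultures of bone marrow as the source of the patrolling cells, a feeder line that presents a Notch ligand. Nothing given here states the animals' age, the sort gates or whether libraries of a subset came from separate cultures or animals. The spread behind every p-value is therefore that between these libraries only, and it may be technical.

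AP-1 is a family of dimeric transcription factors in which a FOS protein pairs with a JUN protein, or JUN proteins pair with each other, through a leucine zipper, and the basic region beside the zipper grips the DNA site called TRE. ATF3 and BATF belong to the same basic leucine zipper (bZIP) class and also pair with JUN proteins, while MAFF is a small MAF protein that has no activation domain of its own. Fos, Fosb, Jun, Junb, Atf3 and Maff are immediate early genes, which cells transcribe within minutes of a growth factor, a cytokine or a stress through MAP kinases, and in monocytes they are known for roles in differentiation and in inflammatory responses.

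In the GENCODE M21 annotation of GRCm38, the build named mm10 in the submitters' processing notes, all 10 genes are protein coding. Fos (ENSMUSG00000021250.12) lies on chromosome 12 from 85473890 to 85477273 and Batf (ENSMUSG00000034266.5) from 85686669 to 85709087, with 209.4 kb between them. Fosb (ENSMUSG00000003545.2) spans 19302696 to 19310051 of chromosome 7, Fosl1 (ENSMUSG00000024912.5) 5447547 to 5455946 of chromosome 19 and Fosl2 (ENSMUSG00000029135.10) 32135801 to 32157842 of chromosome 5. Jun (ENSMUSG00000052684.4) is on chromosome 4 from 95049034 to 95052222. Junb (ENSMUSG00000052837.5) and Jund (ENSMUSG00000071076.5) are both on chromosome 8, from 84974484 to 84978718 and from 70698949 to 70700616. Atf3 (ENSMUSG00000026628.12) covers 191170296 to 191218039 of chromosome 1 and Maff (ENSMUSG00000042622.12) 79346621 to 79359076 of chromosome 15. Of these genes, 5 overlap a gene on the opposite strand. Jund shares 919 bases of its 1668-base locus with the antisense gene Gm11175. The labels name a stranded library kit, and the strand setting used in counting was not stated in the sources used here, so the division of reads at the overlaps is uncertain. Gm11175 averaged 2.33, 8.25 and 9.58 CPM (a gene's counts relative to its library's total, after scaling between libraries) in cMo, intMo and pMo, against 42.2, 97.2 and 139 CPM for Jund. Prdx2, which shares 351 bases with Junb, was at 136 to 186 CPM in all libraries, and Ccdc85b, which shares 2767 bases with Fosl1, at 8.52 to 16.4 CPM.

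Promoter sequences from RefSeq (GRCm38.p6, bases before a gene's start) were found for 9 of the 10 genes, with 11 start sites in all. They are shown for 4 of the 7 genes whose pMo libraries all lay above the cMo libraries. Sites bound by ATF, CREB and JUN dimers are known in promoters of this class. Those 4 have a match to the cAMP response element or to a shortened or variant form of it. The others of the 7, Fosb, Junb and Jund, have no such match. Batf, which showed no called difference, has a match and is not shown. Each line gives the 120 bases before a start, 5′ to 3′ on the gene's strand, with matches in capitals.
Fos, chr12:85473770-85473889, plus strand: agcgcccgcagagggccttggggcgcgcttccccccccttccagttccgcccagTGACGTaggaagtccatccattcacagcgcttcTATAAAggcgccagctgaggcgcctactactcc
Jun, chr4:95052223-95052342, minus strand: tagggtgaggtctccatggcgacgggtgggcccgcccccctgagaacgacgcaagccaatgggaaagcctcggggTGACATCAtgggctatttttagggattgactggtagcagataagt
Maff, chr15:79347400-79347519, plus strand: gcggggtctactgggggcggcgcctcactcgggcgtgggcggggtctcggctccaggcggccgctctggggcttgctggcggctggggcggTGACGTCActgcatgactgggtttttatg
Atf3, chr1:191183334-191183453, minus strand: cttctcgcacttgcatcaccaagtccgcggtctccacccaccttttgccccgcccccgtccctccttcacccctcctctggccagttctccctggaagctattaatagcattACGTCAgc

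Both strands of the 300 bases around each start, 250 of them before it, were searched. TGACGTCA, the cAMP response element (CRE), was present at 1 of the 3 Maff starts and at no other member's start, against 1.79% of 32851 RefSeq promoters. Its first 6 bases, TGACGT, which every CRE also contains, were found for 4 genes, Fos, Batf, Atf3 (on the opposite strand) and Maff, against 7.51% of promoters. TGACATCA, the variant in the Jun promoter, was found for Jun and for another Maff start, against 3.62%. The TRE (TGACTCA or TGAGTCA) was at none of the 11 starts, against 5.2% of promoters, and the CArG box bound by SRF was at none either, against 1.63%. TATAAA stood 33 bases before the Fos start and began at the RefSeq start of Junb, 84978748, against 13.6%. The GENCODE start of Junb, 84978718, lies further into the gene, and the match is upstream of it. A match describes these letters only, and sites outside the window were not searched.

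Totals ran from 18455008 estimated counts in intMo library 0 to 29985563 in pMo library 1. All 8 pan-monocyte markers examined, among them Csf1r and Cd68, were above 100 CPM in each library. The conventional markers Ly6c2 and Ccr2 were called lower in intMo and in pMo than in cMo, and 6 of 6 patrolling markers higher in pMo than in cMo. In intMo against cMo, 3 of these 6 were called higher, 1 (Spn) lower and 2 not called. Markers of lymphoid cells summed to 4.79 to 19.4 CPM, and those of erythroid and mast cells to 0.525 to 13.4 CPM. Libraries 0 stood apart from the other libraries of their subset, with log2 CPM correlations of 0.951 to 0.975 within subsets against 0.986 to 0.99 between libraries 1 and 2. Results that rest on libraries 0 are therefore given with and without them. In these bulk samples, fewer cells of a type and less RNA per cell cannot be told apart.

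Of the JUN genes, Junb had the smallest standard errors. Its level was 165, 172 and 178 CPM in cMo libraries 0, 1 and 2, then 715, 319 and 364 CPM in intMo and 693, 377 and 345 CPM in pMo. Every intMo and pMo library lay above every cMo library, and the intMo and pMo ranges overlapped. Junb, which can both activate and restrain AP-1 targets, was higher in intMo than in cMo by 2.71-fold (log2 1.44 ± 0.35, SE, edgeR adjusted p = 0.0173) and in pMo than in cMo by 2.75-fold (log2 1.46 ± 0.35, edgeR adjusted p = 0.0118). The first call was lost without cMo library 0 (edgeR adjusted p = 0.0559). Both were called at about 2-fold with libraries 1 and 2 alone (log2 0.97 ± 0.12 and 1.05 ± 0.12).

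Jun encodes the strongest transactivator of the JUN group. It stood at 37, 47.4 and 47 CPM in the cMo libraries, 407, 103 and 118 CPM in intMo and 494, 97.7 and 81.2 CPM in pMo. Library 0 of intMo and of pMo was far above the rest, yet the lowest pMo library was still above the highest cMo library. The rise from cMo to pMo was called (log2 2.36 ± 0.76, edgeR adjusted p = 0.0414) and the difference from cMo to intMo was not (log2 2.26 ± 0.76, edgeR adjusted p = 0.0593). The pMo call was lost without any 1 of cMo 0, cMo 1, cMo 2, intMo 2 or pMo 0, at edgeR adjusted p up to 0.189, and with no filter on low counts (0.107). Its size depended on pMo library 0, since the log2 difference was 1.04 without that library and 0.93 ± 0.13 with libraries 1 and 2 alone, a fit in which both differences from cMo were called.

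Jund, the JUN member that most cells transcribe steadily, was at 56.5, 39.4 and 30.7 CPM in cMo, at 181, 51.3 and 59.5 CPM in intMo and at 257, 84.4 and 75.8 CPM in pMo. The intMo range overlapped that of cMo, and the pMo range did not. Neither difference from cMo was called (edgeR adjusted p = 0.174 for intMo and 0.0548 for pMo, log2 1.72 ± 0.60). The pMo difference passed the threshold without intMo 0 (edgeR adjusted p = 0.0209), without pMo 2 (edgeR adjusted p = 0.0499) and with DESeq2 (adjusted p = 0.00773). In the fit to libraries 1 and 2 both differences were called (log2 0.67 ± 0.16 for intMo and 1.20 ± 0.16 for pMo).

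Among FOS genes, Fos had the highest level per kilobase of transcript in every library. It was at 115, 140 and 162 CPM in cMo, 930, 347 and 331 CPM in intMo and 595, 187 and 174 CPM in pMo. All intMo and pMo libraries exceeded all cMo libraries, though pMo library 2 did so narrowly. Fos rose from cMo to intMo by 3.86-fold (log2 1.95 ± 0.55, edgeR adjusted p = 0.0327), and its pMo level was not called against cMo (log2 1.20 ± 0.54, edgeR adjusted p = 0.123). The intMo call was lost without any 1 of the cMo libraries or intMo 0 (edgeR adjusted p up to 0.105) and with no filter (0.0758). Without intMo 0 the log2 difference was 1.3. In the fit to libraries 1 and 2 the log2 difference of intMo from cMo was 1.18 ± 0.12 and that of pMo from cMo 0.27 ± 0.12, of which only the first was called.

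Fosb, a FOS protein whose truncated form is known for building up under repeated stimulation, was scarce in cMo and higher in both later subsets. It had 74, 48 and 14 counts in cMo libraries 0, 1 and 2, which is 2.66, 1.69 and 0.504 CPM. The intMo libraries held 298, 11.8 and 20.4 CPM and the pMo libraries 236, 10.4 and 9.14 CPM. Library 0 was 18.6 times the mean of the other libraries in intMo and 24.2 times in pMo, and all 6 of these libraries were above every cMo library. The differences from cMo were called in pMo (log2 5.72 ± 1.8, edgeR adjusted p = 0.0371) as in intMo (log2 6.08 ± 1.82, edgeR adjusted p = 0.0396). The pMo call was lost without any cMo library or without pMo 0 (up to 0.183, log2 2.6 without pMo 0), and the intMo call without any cMo library or intMo 0 (up to 0.141, log2 3.32 without intMo 0). No filter on low counts ended both (0.125 in intMo and 0.12 in pMo), and DESeq2 gave no adjusted p for this gene. Without the libraries 0 the log2 differences were 3.87 ± 0.46 in intMo and 3.15 ± 0.47 in pMo, both called.

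The remaining FOS genes, Fosl1 and Fosl2, which encode FRA1 and FRA2 and lack the strong activation domain of FOS, did not share this pattern. Fosl1 had between 15 and 27 counts in each library, 0.616 to 1.02 CPM, and its subsets overlapped in all 3 comparisons. No difference was called, and the 95% interval of the log2 difference of pMo from intMo ran from -0.84 to 0.74. Fosl2 had lower means in intMo and pMo than in cMo, with 95.5, 144 and 94.2 CPM in cMo, 106, 57.9 and 74.3 CPM in intMo and 88.5, 73 and 74.4 CPM in pMo. All pMo libraries lay below all cMo libraries. The differences from cMo were not called (log2 -0.49 ± 0.24 in intMo, edgeR adjusted p = 0.173, and -0.50 ± 0.24 in pMo, edgeR adjusted p = 0.143). Without the libraries 0 both were called lower (log2 -0.85 ± 0.21 and -0.69 ± 0.21).

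Atf3, a stress-induced factor that represses many inflammatory genes, had a higher mean in each later subset. It was at 15, 33.7 and 36.9 CPM in cMo, 102, 48.6 and 45.7 CPM in intMo and 161, 80.2 and 85.9 CPM in pMo. Both later subsets were clear of cMo, and intMo library 0 overlapped the pMo range. The pMo level was 3.81-fold that of cMo (log2 1.93 ± 0.45, edgeR adjusted p = 0.0105), called also on leaving out any 1 library, with log2 1.24 ± 0.11 with libraries 1 and 2 alone. The difference of intMo from cMo did not pass (log2 1.20 ± 0.44, edgeR adjusted p = 0.0786), while it did in the fit to libraries 1 and 2 (log2 0.42 ± 0.11, edgeR adjusted p = 0.0231).

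Maff followed the same order at a lower level, with 3.06, 2.25 and 1.44 CPM in cMo, 9.86, 3.4 and 4.44 CPM in intMo and 15.6, 7.14 and 9.79 CPM in pMo. All intMo and pMo libraries were above cMo, and intMo library 0 lay within the pMo range. Its rise from cMo to pMo had the smallest adjusted p of the 10 genes (log2 2.26 ± 0.48, 4.81-fold, edgeR adjusted p = 0.00663) and was called in each of the alternatives run, with log2 differences of 1.92 to 2.55. The intMo difference did not pass (log2 1.38 ± 0.47, edgeR adjusted p = 0.061). It did with DESeq2 (adjusted p = 0.0166), without intMo 1 (edgeR adjusted p = 0.041) and in the fit to libraries 1 and 2 (log2 1.09 ± 0.30, edgeR adjusted p = 0.0279).

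Batf, which pairs with JUN proteins and with IRF4 or IRF8 at composite sites, showed no called difference. Its values were 21.6, 21.7 and 26.7 CPM in cMo, 18.1, 21.9 and 25.9 CPM in intMo and 19.2, 23.9 and 23.2 CPM in pMo. The subsets overlapped in all 3 comparisons, and the 95% interval of the log2 difference between pMo and intMo ran from -0.38 to 0.40. Its relative Batf3, which is needed for a dendritic cell lineage, had 0.792 to 1.91 CPM in cMo, 8.19 to 16.9 CPM in intMo and 20.2 to 31 CPM in pMo, with no overlap between subsets (log2 4.27 ± 0.41 for pMo against cMo, edgeR adjusted p = 0.000141).

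**Figure D1:**
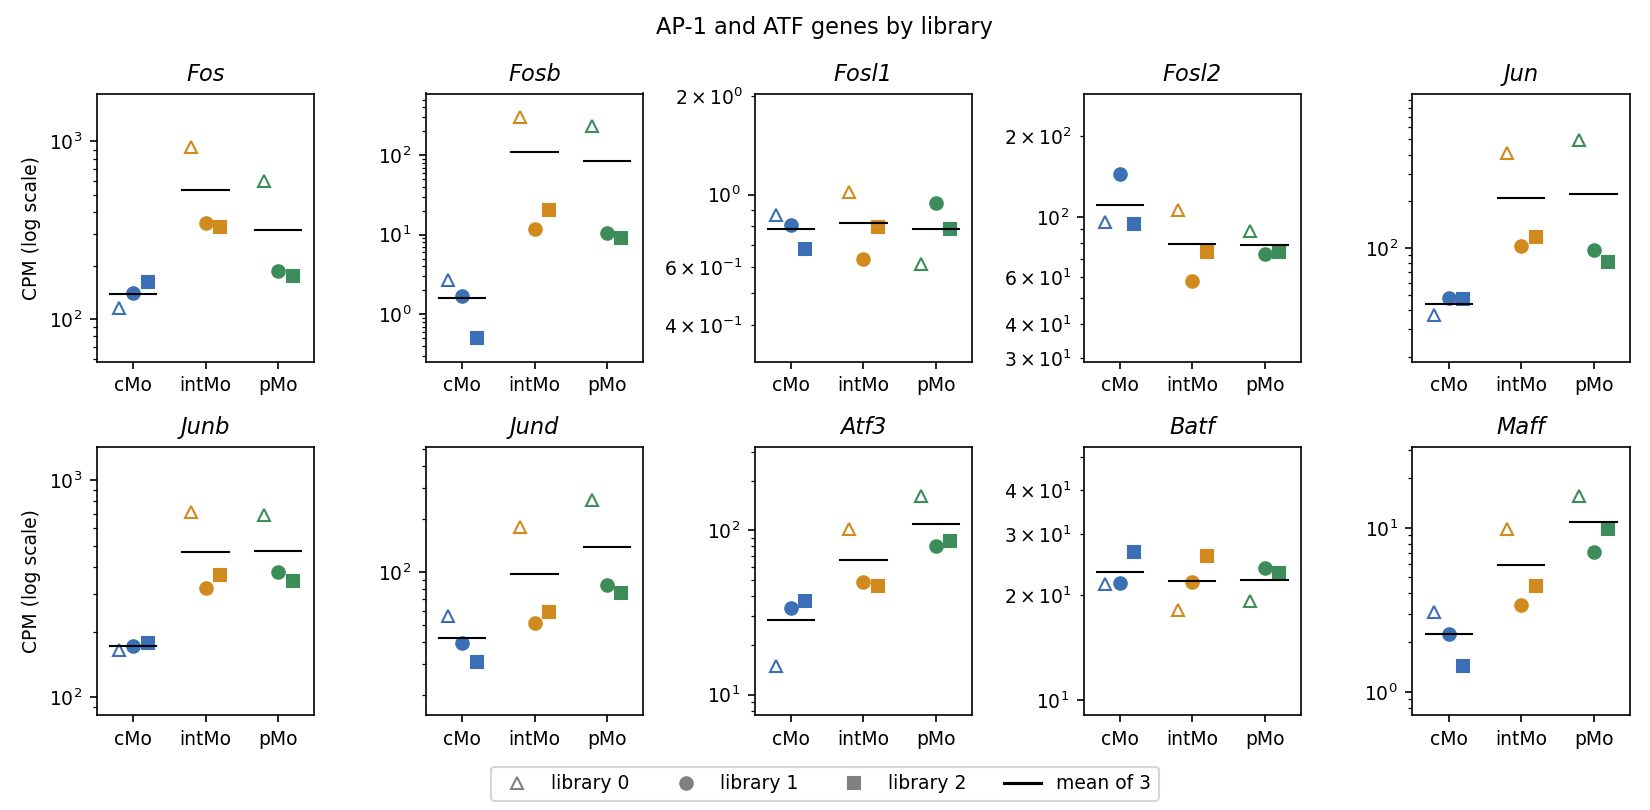
CPM of each gene by subset, 1 panel per gene with its own logarithmic axis. Open triangles are libraries 0, circles libraries 1, squares libraries 2, and black lines the mean of 3 libraries. In intMo and pMo, library 0 of Fos, Fosb, Jun, Junb, Jund, Atf3 and Maff is the highest of its subset, and the points of Batf and Fosl1 overlap across the subsets.

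Counted together, 3 of 10 genes rose from cMo to intMo (Fos, Fosb and Junb), none fell and 7 were not called, where 14.0% of all 14059 tested genes were called higher, 10.4% lower and 24.4% in all. Groups did not overlap, with intMo higher, for 6 of 10, against 21.2% of all genes (20.1% with intMo lower, 41.3% in all). From cMo to pMo, 5 of 10 rose (Fosb, Jun, Junb, Atf3 and Maff) and none fell, against 17.2% called higher, 15.9% lower and 33.1% in all. The groups were apart with pMo higher for 7 of 10, against 26.0%, and with pMo lower for Fosl2 alone, against 23.5% (49.5% in all). The median log2 difference of the 10 genes was 1.29 for intMo and 1.59 for pMo against cMo, beside -0.01 and 0.03 over all genes. An F test for any difference among the subsets called Junb, Atf3 and Maff (edgeR adjusted p = 0.0192, 0.0251 and 0.0159), where 33.0% of all genes were called. These comparisons share the cMo libraries.

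The number of calls depended on the libraries 0. In the fit to libraries 1 and 2, with 2 per subset, 7 of 10 genes were called higher in intMo than in cMo and 1 lower, against 15.8% and 11.9% of all genes (27.8% in all). For pMo against cMo there were 6 higher and 1 lower, against 19.7% and 18.0% (37.7% in all). The estimated differences in that fit were smaller for all of the genes called in the fit to 9 libraries, and the standard errors were smaller too. Leaving out single libraries moved the intMo count between 0, without cMo 0, and 4, and the pMo count between 3 and 6. The count was 1 for intMo without cMo 1, cMo 2 or intMo 0, and 3 for pMo without any cMo library or pMo 0. No filter on low counts gave 1 and 3 higher, where 8.78% and 11% of all genes were called higher. DESeq2 called 5 of 10 higher in intMo and 5 of 10 in pMo, where 16.2% and 18.9% of all genes were called higher and 14.3% and 18.6% lower, shares above those of edgeR.

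**Figure D2:**
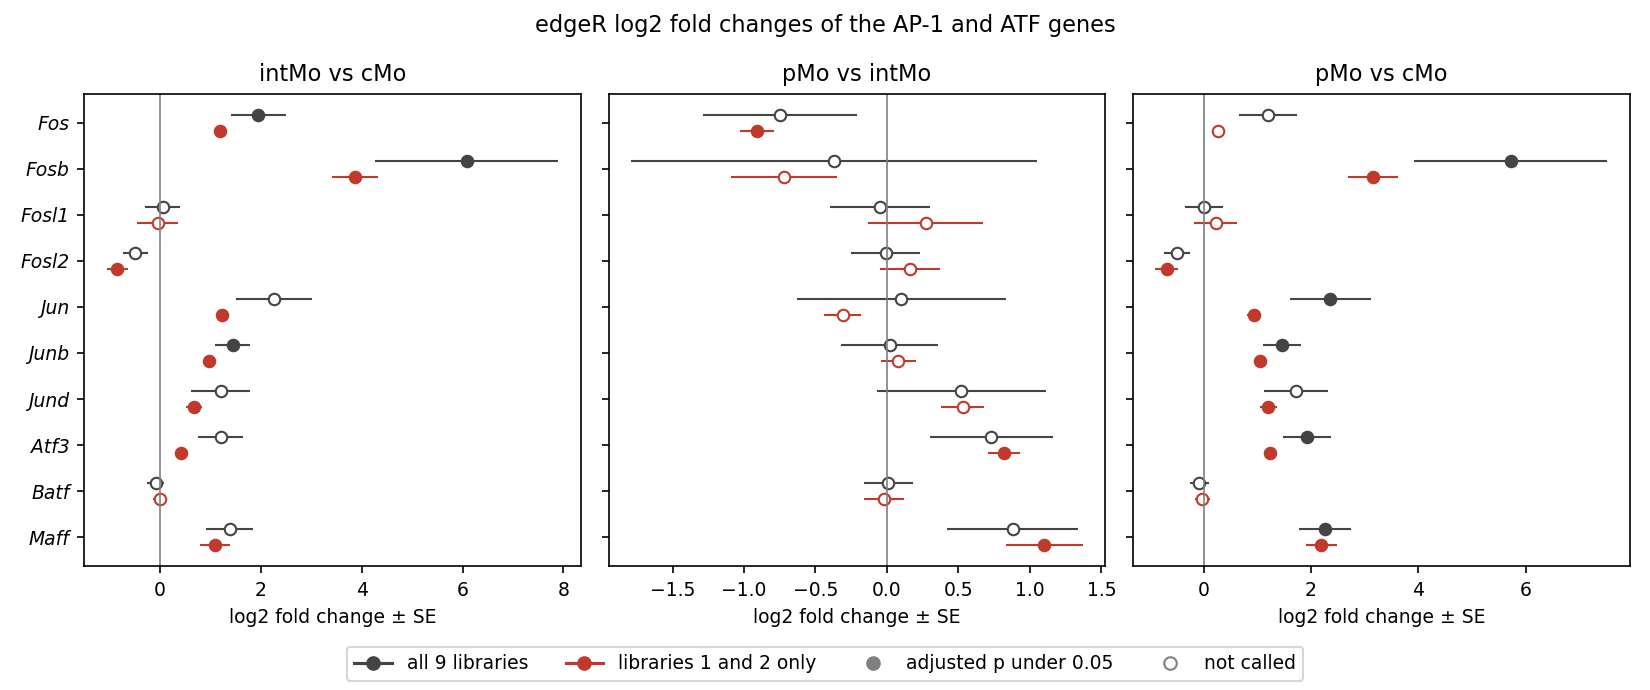
Log2 fold change ± SE of each gene in 3 comparisons, each with its own axis. Grey is the fit to all 9 libraries and red the fit to libraries 1 and 2, with filled points at an adjusted p under 0.05. Fosb has the widest bars in the fit to 9 libraries, and Fos lies below 0 and Atf3 and Maff above 0 for pMo against intMo.

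Patrolling and intermediate cells were compared next. In the fit to all 9 libraries 0 of 10 genes were called, and 0 had an unadjusted p under 0.05, where 4.99% of all genes were called (3.29% higher and 1.69% lower), and DESeq2 also called 0. No gene had groups that did not overlap, against 27.7% of all genes (14.8% higher and 12.9% lower). Libraries of the same number in these 2 subsets deviated together across genes, as described with the processing, so ratios within a number were also taken. Whether such libraries are true pairs is not known. Fos was lower in pMo in 3 of 3 pairs, at 0.64, 0.539 and 0.525 of its intMo level in pairs 0, 1 and 2. Fosb was lower in 3 of 3 as well, at 0.792, 0.884 and 0.449.

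Atf3 was higher in pMo in 3 of 3 pairs, by 1.57, 1.65 and 1.88 times. Maff was higher by 1.58, 2.1 and 2.2 times, and Jund by 1.42, 1.64 and 1.27 times. Jun and Junb had pairs on both sides of 1. A fit to the 6 intMo and pMo libraries with the number as a block, added after the data were seen, called Fos lower (log2 -0.84 ± 0.11, edgeR adjusted p = 0.000668). It called Atf3 (log2 0.75 ± 0.10, edgeR adjusted p = 0.00115), Maff (log2 0.93 ± 0.18, edgeR adjusted p = 0.00624) and Jund (log2 0.51 ± 0.11, edgeR adjusted p = 0.011) higher. Fosb was not called (edgeR adjusted p = 0.0804). These are 3 of 10 genes higher and 1 lower, against 9.13% and 9.99% of all genes in that fit (19.1% in all). In the unpaired fit to 9 libraries the Jund difference was log2 0.52. It was log2 -0.27 without pMo library 0 and 1.33 without intMo library 0. With libraries 1 and 2 alone it was log2 0.53 ± 0.15 and was not called. With the block in a fit to all 9 libraries 0 of 10 were called, and with libraries 1 and 2 alone, unpaired, Fos was lower and Atf3 and Maff higher, against 9.67% called lower and 7.43% higher (17.1% in all).

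**Figure D3:**
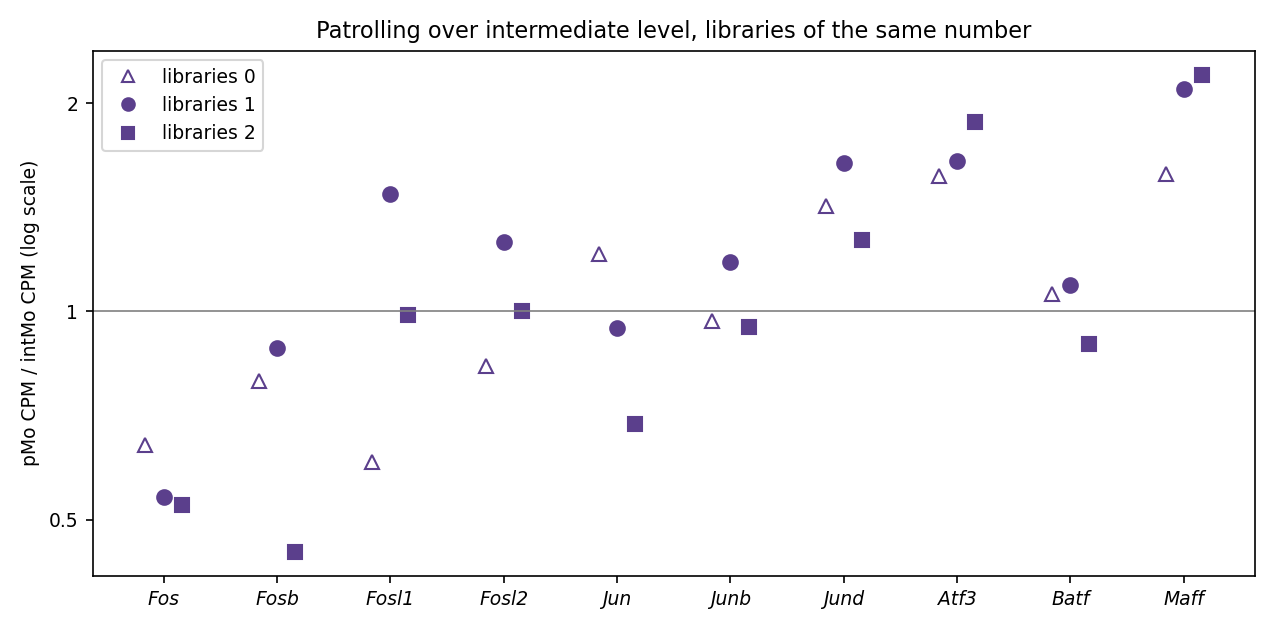
Ratio of pMo CPM to intMo CPM between libraries of the same number, on a logarithmic axis, for each gene. All 3 points lie below 1 for Fos and Fosb and above 1 for Jund, Atf3 and Maff.

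The libraries 0 of the later subsets held more of these transcripts than the rest. In intMo, library 0 was the highest of 3 for 9 of 10 genes and at least 2-fold the mean of the others for 7, where 40.8% and 6.44% of all genes met these conditions. In pMo the counts were 8 and 4 of 10, against 42.7% and 5.19%. In cMo they were 4 and 1 of 10, against 40.8% and 7.62%, and Fos, Jun, Junb, Atf3 and Batf were lowest in library 0 there. Summed over the 10 genes, intMo library 0 had 2770 CPM against 965 and 1040 CPM in the others, pMo library 0 had 2560 CPM against 941 and 879 CPM, and the cMo libraries had 512 to 603 CPM.

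Several other lists moved with this shift. The summed level of 17 other immediate early and dissociation genes, such as the orphan receptor gene Nr4a1, was 5850 CPM in intMo library 0 against 3380 and 3900 CPM, and 8780 CPM in pMo library 0 against 6750 and 6320 CPM. The 10 stromal markers summed to 555 CPM in intMo library 0 against 168 and 204 CPM, to 378 CPM in pMo library 0 against 238 and 188 CPM, and to 8.21 to 15.9 CPM in cMo. Of these markers, 8 of 8 tested were called higher in intMo than in cMo and 8 of 8 in pMo, while Dcn was at 0 in every library and Lum at 0 in all but intMo 0 and pMo 0. The 10 heat shock genes summed to 4430 CPM in intMo library 0 and 3520 CPM in pMo library 0, below the 5180 to 6260 and 5090 to 5110 CPM of the others, but most of that sum was Hspa8, at 3980 CPM in intMo library 0. Hsp90aa1, Hsph1, Hspd1 and Hspe1 were, like Hspa8, lowest in library 0 of both subsets. Dnajb1 and Bag3 were highest there, and Hspb1 lay between the other libraries. The stress-inducible Hspa1a went with the AP-1 genes. It was at 19.1 CPM in intMo library 0 against 0.849 and 0.398 CPM. In pMo library 0 it was at 13.1 CPM against 0.735 and 0.83 CPM. Its near-identical copy Hspa1b, with which it can share reads, was at 6.43 CPM against 1.4 and 2.02 CPM in intMo and at 6.08 CPM against 2.35 and 1.62 CPM in pMo. The 9 granulocyte markers ran the other way from AP-1, at 450 CPM in intMo library 0 against 4020 and 3740 CPM and at 12300 CPM in cMo library 0 against 2200 and 2480 CPM, and they were also low in pMo library 0 (544 CPM against 2450 and 2520 CPM). The part of stromal cells, of granulocytic cells or of stress in the AP-1 levels was not tested. Hspa1a and Hspa1b were singled out after their values were seen.

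**Figure D4:**
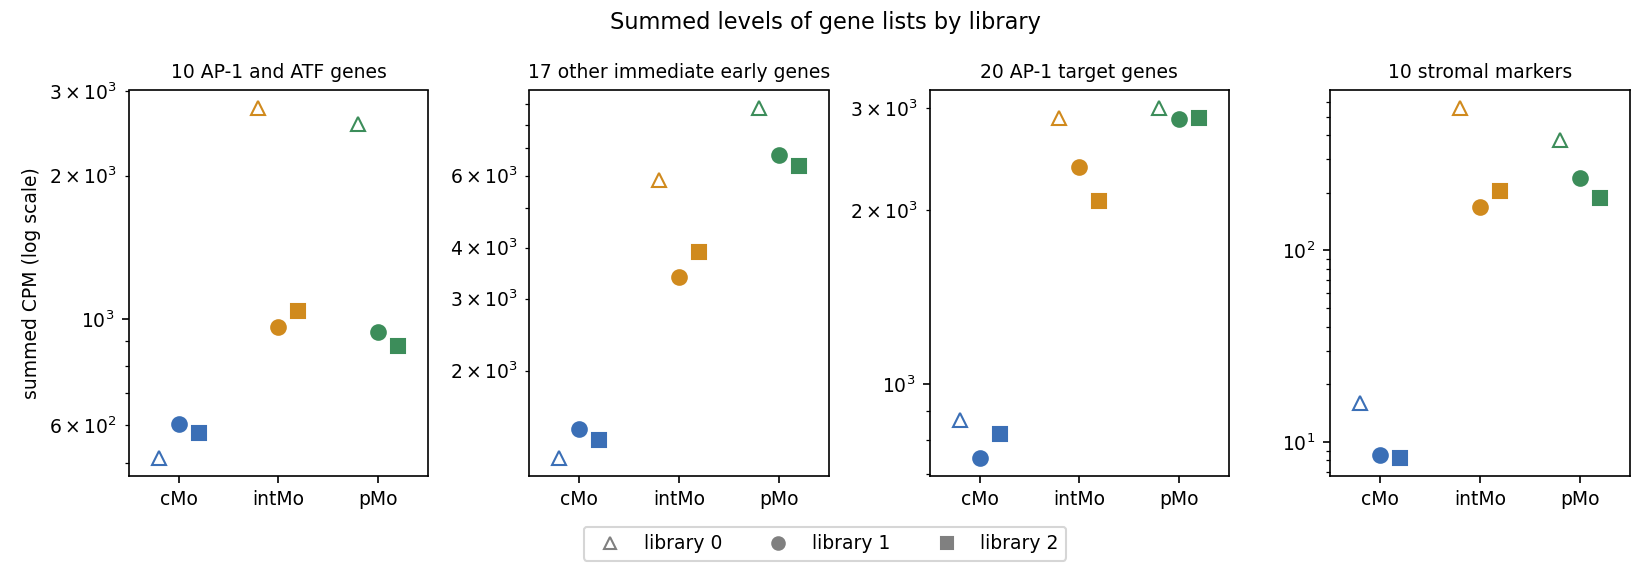
Summed CPM of 4 gene lists by library on logarithmic axes, with open triangles for libraries 0. The AP-1 and ATF genes and the stromal markers are both highest in library 0 of intMo and of pMo, at 2770 and 555 CPM in intMo, while the target genes differ less between libraries of a subset.

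The make-up of the FOS and JUN transcripts was compared as each gene's share of the summed CPM per kilobase of the 7 FOS and JUN genes, using the longest coding transcript as length. The sum was 207 to 223 CPM per kilobase in cMo, 416 and 448 in intMo libraries 1 and 2 with 1170 in library 0, and 358 and 393 in pMo libraries 2 and 1 with 1050 in library 0. Junb held the largest share in 8 of 9 libraries, with 43.6 ± 0.786% in cMo, 40.4 ± 5.77% in intMo and 47.6 ± 9.62% in pMo (mean ± SD, n = 3). Fos was next, and exceeded Junb in intMo library 0. With the union of all exons as length, Junb was first in 7 of 9 libraries, and Fos exceeded it in intMo library 1 as well (41.3% against 38.8%) and in the intMo mean (39.2% against 37%). Its share was 37.8, 39.6 and 35.1% in intMo, above all cMo libraries (26.4 to 34.3%), and 26.8, 22.6 and 23% in pMo, where it overlapped cMo in library 0 only.

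Fosl2 made up 6.45 to 9.9% of the sum in cMo and 1.29 to 3.18% in the other 6 libraries, with no overlap. A share also falls when the sum rises, as it did here. Fosl2 itself averaged 17, 12.2 and 12 CPM per kilobase in cMo, intMo and pMo, and was not called in the fit to 9 libraries. Fosb was at most 0.34% in cMo, 0.674 to 1.2% in libraries 1 and 2 of the later subsets, and 6.75% and 5.95% in library 0 of intMo and pMo. Jun rose above its cMo range of 5.6 to 6.66% in each later library, from 7.11% up to 14.8% in pMo library 0. The 4 FOS genes together made up 38.9 to 45.9% of the sum in intMo and 26.3 to 34.1% in pMo, so these ranges were apart. In cMo they made up 34, 40 and 41%, which overlapped both. With the union of all exons as length, some means moved by more than the SD between libraries. Mean Junb in cMo went from 43.6% to 40.4%, and mean Jun in cMo from 6.29% to 7.41%. Mean Jund went from 8.21% to 9.58% in intMo and from 13.4% to 15.7% in pMo. Shares of transcripts are not shares of protein.

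**Figure D5:**
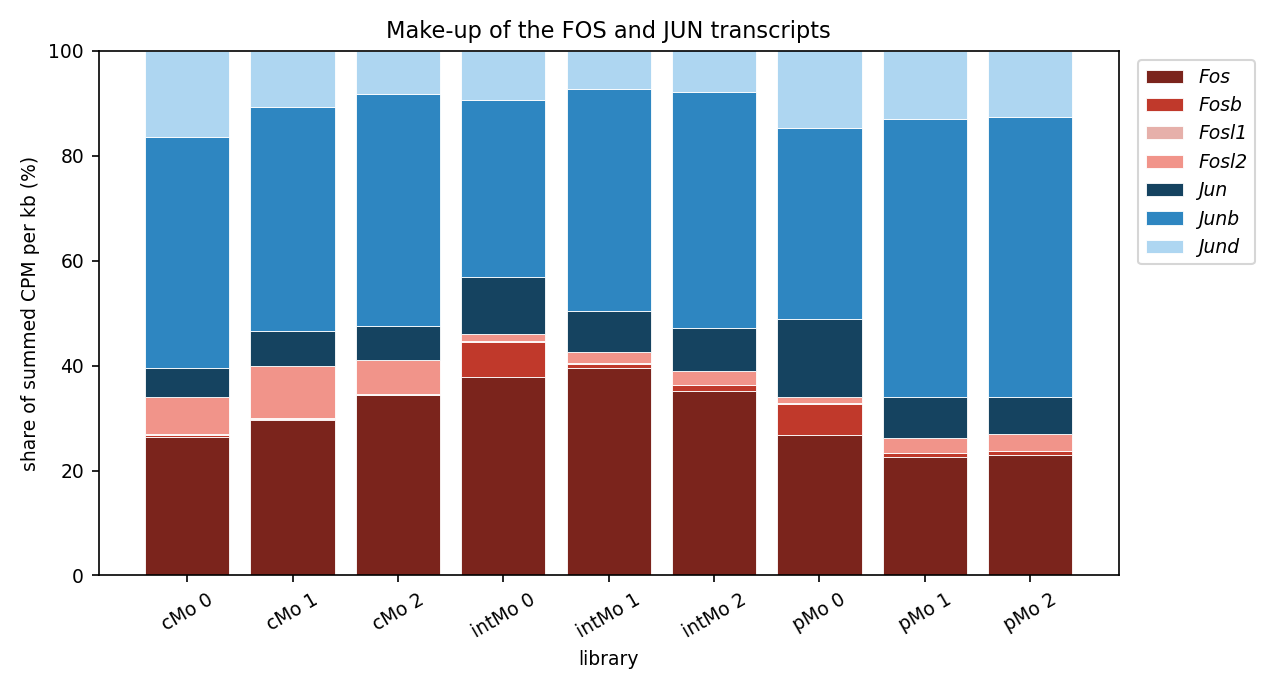
Share of each FOS gene (reds) and JUN gene (blues) in the summed CPM per kilobase, 1 bar per library. Fosl2 is wider in the 3 cMo bars, Fos in the 3 intMo bars, and Fosb is visible in library 0 of intMo and of pMo.

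Other genes of the pathway were counted by list, to be read against the shares of all genes called, which were 14.0% higher and 10.4% lower for intMo against cMo, 3.29% and 1.69% for pMo against intMo, and 17.2% and 15.9% for pMo against cMo. Of 15 further bZIP factors that can pair with FOS, JUN or ATF proteins, 4 rose from cMo to intMo (Batf2, Batf3, Creb5 and Crem) and none fell, and 6 rose and 1 fell from cMo to pMo. Their median log2 difference was -0.1 in intMo against cMo, beside -0.01 for all genes. Atf6, a sensor of unfolded protein and the most abundant of them, rose from 175 ± 31.9 to 307 ± 33.9 CPM from cMo to pMo (log2 0.81 ± 0.16, edgeR adjusted p = 0.00531). Of 9 MAF and CNC factors tested, 3 rose and 1 fell from cMo to intMo, and 4 rose to pMo. Nfe2l2, the oxidative stress factor NRF2 that dimerizes with small MAF proteins such as MAFF, rose at each step, from 179 ± 33.2 through 326 ± 25.2 to 671 ± 128 CPM (edgeR adjusted p = 0.0102 and 0.0143).

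Of 20 MAP kinases and kinases above them that act on these factors, 3 rose and 1 fell from cMo to intMo, and 5 rose and 2 fell from cMo to pMo, against 14.0% and 10.4% of all genes for intMo and 17.2% and 15.9% for pMo, so the intMo counts were near or below those shares. Mapk14, the main p38 kinase and the most abundant, was at 368 ± 22, 389 ± 11.3 and 468 ± 38.8 CPM. Mapk8, the JUN kinase JNK1 and a gene chosen after its values were seen, rose from 31.4 ± 3.02 in cMo up to 109 ± 8.88 CPM in intMo (edgeR adjusted p = 0.000237, log2 1.79 ± 0.17) and was at 77 ± 16.2 CPM in pMo. Mapk11, a minor p38 kinase, had the largest called change in intMo but stayed under 5 CPM, and Map2k6, a p38 activator, fell from intMo to pMo (7.38 ± 1.07 to 3.32 ± 0.396 CPM, edgeR adjusted p = 0.0183). Of 4 SRF and ternary complex factor genes, which regulate transcription of Fos, edgeR called 0 in each comparison of the 9 libraries. In each, 1 had an unadjusted p under 0.05, and DESeq2 called 1 higher in pMo than in intMo. Elk3, the most abundant, was at 81.7, 72.3 and 108 CPM on average in cMo, intMo and pMo.

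A list of 6 ubiquitin ligases and adaptors was drawn up for the turnover of JUN or FOS proteins. Of these, 2 rose from cMo to intMo and none fell, and 2 rose and 1 fell to pMo. Of all genes, 14.0% and 17.2% rose. Turnover of JUN or FOS proteins was not measured, nor was any action of TRIB1 on them. Trib1, an adaptor of the ligase COP1, rose from 11.7 ± 5.08 to 68.1 ± 4.87 CPM in intMo and 110 ± 3.9 CPM in pMo (edgeR adjusted p = 0.000511 and 0.000108 against cMo). Itch, a ligase for JUN proteins, rose from 112 ± 20.1 to 184 ± 18.1 and 258 ± 43.9 CPM (0.0203 and 0.0013). Of 6 genes listed as partners at composite sites, 2 rose to intMo and 3 to pMo. Whether they, NFAT5 included, act with AP-1 at such sites was not tested. Nfat5, a factor of the NFAT family, was at 91.9 ± 19.5 CPM in intMo and 278 ± 10.5 CPM in pMo (log2 1.60 ± 0.26, edgeR adjusted p = 0.00899). Nfatc2 rose from 22.7 ± 9.31 to 56.1 ± 17.3 CPM from cMo to intMo (edgeR adjusted p = 0.0213), and Irf8, the most abundant partner, was not called in any comparison (331, 405 and 277 CPM).

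Of 18 textbook AP-1 target genes tested, 7 rose and none fell from cMo to intMo, 3 rose and none fell from intMo to pMo, and 10 rose and 1 fell from cMo to pMo, where 14.0%, 3.29% and 17.2% of all genes rose. Their median log2 difference was 1.22 for intMo and 1.19 for pMo against cMo. With libraries 1 and 2 alone, 8 were higher and 1 lower in intMo than in cMo, and 5 higher and 7 lower in pMo than in intMo. Mmp13, a collagenase, had 0.756 to 4.92 CPM in cMo, 560, 385 and 312 CPM in intMo and 196, 127 and 136 CPM in pMo (log2 6.92 ± 0.65 for intMo against cMo, edgeR adjusted p = 0.000232). Its intMo libraries were all above its pMo libraries, without a call (edgeR adjusted p = 0.155). Spp1, the secreted protein osteopontin, went the other way in the last step, from 30.7, 82.9 and 70.1 CPM in intMo to 287, 508 and 486 CPM in pMo (log2 2.80 ± 0.43, edgeR adjusted p = 0.00846). Il1b, the most abundant of the targets, did not differ by a call between intMo and pMo (939 to 1550 and 1360 to 1640 CPM, edgeR adjusted p = 0.581).

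Of the 17 other immediate early and dissociation genes, 11 rose and 1 fell from cMo to intMo, 5 rose and none fell from intMo to pMo, and 13 rose and 1 fell from cMo to pMo, where 14.0%, 3.29% and 17.2% of all genes were called higher. Without the libraries 0 the counts were 12 and 2, 7 and 2, and 14 and 2. Egr3, a zinc finger factor, had under 0.1 CPM in each cMo library, 1.95 to 3.22 CPM in intMo and 9.49 to 14 CPM in pMo (edgeR adjusted p = 0.00307 for pMo against intMo). Nr4a1, the most abundant of the list and a gene that patrolling monocytes need, rose at both steps, from 232 ± 29.7 to 1920 ± 386 and then 4490 ± 534 CPM (edgeR adjusted p = 2.2e-05 and 0.00598). Of 10 heat shock genes 0 rose and 3 fell from cMo to intMo, and 1 rose and 3 fell to pMo, while without the libraries 0 the counts were 1 and 1 for intMo and 1 and 2 for pMo. In the fit to 9 libraries, Hspa1a was not called (log2 2.35 ± 1.51 for intMo against cMo, edgeR adjusted p = 0.29), and Hspd1, a mitochondrial chaperone, was among those that fell, from 243 ± 87.9 to 126 ± 26.1 CPM in intMo (edgeR adjusted p = 0.0287, log2 -0.95 ± 0.26). Hspa8, a constitutive chaperone and the most abundant of them, was at 3570 ± 486, 4760 ± 833 and 4080 ± 899 CPM in cMo, intMo and pMo and overlapped in all 3 comparisons.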

How the data were processed

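The deposited table holds estimated counts per Ensembl gene, which the authors made with kallisto 0.46.1, and mm10 is the build named, both per the submitters' processing notes. Annotation, filters and strand setting were not stated there. IDs were matched to GENCODE M21 symbols without their version suffix (46005 of 46517 matched). Values, of which 25.6% to 27.5% per library were not whole, were rounded. Genes were kept with filterByExpr by subset and scaled by TMM, and all 9 libraries were fitted together with edgeR 4.0.16 (quasi-likelihood F test, robust, R 4.3.3). Calls were made at 0.05 on p-values adjusted by Benjamini-Hochberg over 14059 genes. SE is the log2 fold change over the square root of F. The steps were tested on simulated counts.

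The 10 genes and the 16 other lists were chosen with earlier results of these data known. From each list the most abundant gene and the called genes with the largest non-overlapping change were named, with marker lists given as sums, and 1 gene named by this rule is not reported here. Alternatives were RLE and upper quartile scaling, other filters, DESeq2 1.42.0, left-out libraries, libraries 1 and 2 alone, and the library number as a block. Deviations from subset means of same-numbered libraries correlated at 0.588, 0.3 and 0.274 between intMo and pMo. These are treated as pairs, a pairing that comes from the data and the shared number. Deviations within a subset cancel out, so a shared shift of libraries 0 alone also raises the values for numbers 1 and 2. Libraries of unlike number were not compared, so the pairing is an assumption. Between cMo and the others the same correlations were between -0.143 and 0.23, and those libraries were not treated as pairs. No cutoff was set, and the labels do not say what the number marks.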

Additional observations from a re-analysis of the deposited data

How the results depend on the processing

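With 3 libraries per subset, 1 of which stood apart, the precision was low for the genes that differed most between libraries, and Fosl1 and, in cMo, Fosb rest on few counts. The calls of Junb, Atf3 and Maff in pMo against cMo held under every alternative run, and no difference called in the fit to all 9 libraries changed its sign under any. The number of members called for intMo against cMo, 3 in the fit reported, was 1 with no filter on low counts (8.78% of all genes called higher and 5.89% lower), 5 with DESeq2 (16.2% and 14.3%), 5 with a replicate block over the 9 libraries (14.9% and 11.1%), 8 with libraries 1 and 2 (15.8% and 11.9%), and 0 to 4 on leaving out 1 library (10.4% to 13.4% higher). For pMo against intMo, 0 as reported, it was 3 with libraries 1 and 2 (7.43% of all genes higher and 9.67% lower), 4 with a replicate block over the intMo and pMo libraries alone (9.13% and 9.99%), and 0 with that block over all 9 libraries and on leaving out any library. For pMo against cMo, 5 as reported, it was 3 with no filter (11% and 9.64%) and 3 to 6 on leaving out 1 library (12.6% to 17.9% higher). The block over 9 libraries ended the call of Jun in pMo against cMo (log2 1.71, edgeR adjusted p = 0.054), and called Jund in both comparisons with cMo. Whether the numbers pair cMo libraries with the others is not known.

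Differences not called in that fit changed sign in places, and the cause was not tested. For pMo against intMo, upper quartile scaling gave log2 -0.04 for Junb and -0.05 for Batf, and the 1 CPM filter -0.01 and -0.02. Jun was at -0.05 with the replicate block and at -0.13 with the block over intMo and pMo alone, where Fosl2 was at 0.01 and Batf at 0. Libraries 1 and 2 gave 0.27 for Fosl1, 0.16 for Fosl2, -0.31 for Jun and -0.02 for Batf. On leaving out 1 library, log2 differences of pMo from intMo ran from -3.48 to 2.41 for Fosb, -0.21 to 0.13 for Fosl1, -0.2 to 0.25 for Fosl2, -1.22 to 1.02 for Jun, -0.36 to 0.47 for Junb, -0.27 to 1.33 for Jund and -0.11 to 0.15 for Batf. The lowest values of Fosb, Jun, Junb and Jund came without pMo 0 and the highest without intMo 0. Against cMo, intMo ran from -0.12 to 0.2 for Fosl1 (-0.05 with libraries 1 and 2) and -0.22 to 0.04 for Batf. Likewise pMo ran from -0.16 to 0.15 for Fosl1 (0 with the replicate block, 0.22 with libraries 1 and 2) and -0.14 to 0.03 for Batf.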

Other observations

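Genes whose log2 CPM ran most like that of 8 AP-1 and ATF genes over the 9 libraries were listed by Pearson correlation, as a description with no test, out of 7275 named genes averaging 20 CPM or more. Fosl1 and Maff, whose means lay under 20 CPM, were left out. The libraries fall into subsets and share the shift of libraries 0, so high values are common. Nearest to Junb were Ppp1r15a, a phosphatase subunit of the stress response (r = 0.994), Dusp1, a MAP kinase phosphatase (r = 0.985), and Sik1, a salt-inducible kinase (r = 0.983). Nearest to Atf3 were Gpr137b, Arl4c and Itprid2, to Jun Nrip1, Manbal and Yipf3, and to Jund Ptprs, Zfand2a and Cc2d1a. Fosb ran closest to Ip6k1, Tbc1d16 and Prkar2a, and Fos to H2-DMb1, Fabp5 and Ahr, the aryl hydrocarbon receptor (r = 0.965). The nearest values were lower for Fosl2, with Aplp2, Rarg and Borcs6 (up to r = 0.941), and for Batf, with Glrx2, Slc4a1ap and Arpp19 (up to r = 0.891).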
